A study of Homo sapiens with 6 samples.

Results

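The members were 10 genes of transcription factors and their partners that shape the T-cell lineage: ZBTB16, ZBTB7B, TCF7, LEF1, TOX, TOX2, SATB1, ETS1, ID2 and ID3. They were taken by symbol from a table of 59248 gene symbols, and all 10 were among the 21055 genes that passed the filter on low values and were tested. They were chosen by symbol with earlier results of the same comparison known, among them the fitted fold changes and adjusted p-values of OE against Vec. Their differences between the groups are therefore given as a description. The libraries came from cells of the Jurkat line, which was set up from a human T-cell leukemia and which the growth protocol calls Jurkat KO-1; the labels do not say what this addition means. In 3 libraries (OE) the cells overexpressed PDCD1 28, a splicing isoform of the PD-1 receptor gene PDCD1 that keeps 28 bases of intron 2, and 3 libraries (Vec) came from cells with the vector. The labels number the libraries but name no separate cultures or clones, so the spread between them may be technical.

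ZBTB16 encodes PLZF, the factor that directs innate-like T cells such as NKT cells, and ZBTB7B encodes ThPOK, which fixes the CD4 helper fate of thymocytes in mice. TCF7 and LEF1 encode TCF-1 and LEF-1, high-mobility-group (HMG) box factors that act early in the T lineage and can bind β-catenin, the effector of Wnt signalling. TOX and TOX2 are HMG-box factors known from mouse thymocytes and exhausted T cells, SATB1 organises chromatin in thymocytes, and ETS1 is an ETS-family factor of lymphocytes. ID2 and ID3 lack a DNA-binding region and hold E proteins, which bind the E-box, away from DNA.

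PDCD1 had 945, 1059 and 807 estimated counts in OE libraries and 14, 18 and 15 in Vec libraries, so the overexpression was seen in each OE library. The counts are per gene and do not separate the isoform. Total estimated counts ran from 61486369 to 72314037 in OE libraries and from 59911578 to 84220970 in Vec libraries. All 14 T-cell markers passed the filter; CD3D averaged 250.5 ± 9.15 CPM in OE and 267.7 ± 5.32 CPM in Vec, and CD3E 396 ± 3.69 CPM in OE and 415 ± 10.7 CPM in Vec (SD, n = 3 each; CPM is the estimated count scaled to a common library size). Neither of these was called. The summed CPM of the T-cell markers was 3281 to 3331 in OE and 3617 to 3729 in Vec. Of the 14, 2 were called higher (TRBC1 and ZAP70) and 9 lower in OE, against 22.6% higher and 23.4% lower over all genes tested. Their median log2 fold change, OE over Vec, was -0.52. Among those called lower, CD2 averaged 4.32 ± 0.312 CPM in OE and 25.6 ± 1.71 CPM in Vec. CD7 averaged 17.5 ± 1.01 CPM in OE and 74.4 ± 8.36 CPM in Vec. Among markers of other cells, 5 of 8 B-cell, 4 of 9 myeloid, 2 of 7 NK-cell, 3 of 6 erythroid and 1 of 5 epithelial genes passed the filter. Their summed CPM was 33.4 to 40.4 in OE and 52.2 to 69.8 in Vec for B cells, 36.1 to 39.7 in OE and 50.6 to 57.0 in Vec for myeloid cells, and 4.25 to 4.59 in OE and 3.30 to 6.40 in Vec for NK cells. It was 12.9 to 14.6 in OE and 9.15 to 29.2 in Vec for erythroid cells, and 0.785 to 1.58 in OE and 0.192 to 0.446 in Vec for epithelial cells. NCR1 and EPCAM were at 0 in every library. The part of these markers in the results was not tested.

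Vec replicate 2 stood apart from the other Vec libraries on the principal component that held 12.1% of the variance. Of the 13973 tested genes that averaged 100 estimated counts or more, it was at least 1.5 times both other Vec libraries in 527 (3.77%). In 429 (3.07%) it was lower than both by at least that factor. TCF7, LEF1, ID2 and ID3 are given with and without it below.

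Of the 10 members, 1 was called higher and 5 lower in OE, at an adjusted p under 0.05 in edgeR's quasi-likelihood test over all 21055 genes. Over all genes tested 46.1% were called, 22.6% higher and 23.4% lower. OE and Vec libraries did not overlap in 6 of the 10 members, against 58.7% of all genes. The median log2 fold change of the members was -0.17, and that of all genes 0.02. The share of members that did not overlap is near that of all genes, while the share called lower is above the 23.4% of all genes. The choice of members used this comparison, so nothing is read from either share. Without Vec replicate 2, 1 member was called higher and 6 lower, where 49.5% of 21950 genes were called (24.1% higher and 25.4% lower). Log2 fold changes are OE over Vec with their SE. In bulk libraries, fewer cells with a transcript and less transcript per cell cannot be told apart.

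**Figure D1:**
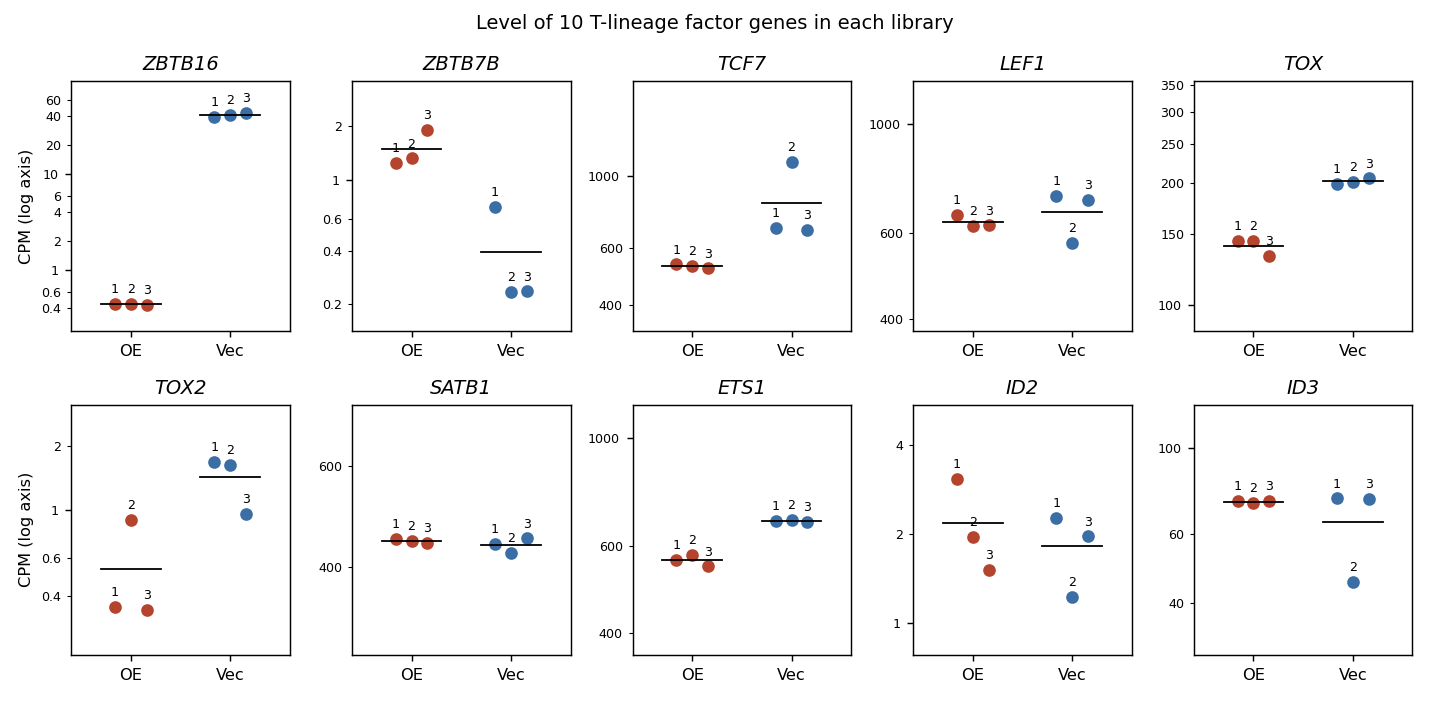
CPM on a log axis for each of the 10 genes, with OE left of Vec; points are libraries, marked with their replicate number, lines are group means, and the axis range differs between panels. ZBTB16 lay near 0.44 CPM in all OE libraries and near 40 CPM or above in Vec, while SATB1 lay between 424 and 449 CPM in all 6 libraries.

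Of the BTB zinc finger pair, ZBTB16 was almost silent in OE libraries and ZBTB7B was low in both groups. ZBTB16 (chromosome 11, 114059593 to 114250676, plus strand, hg38) had 29, 33 and 28 estimated counts in OE libraries and 2294, 3324 and 2957 in Vec libraries. This is 0.447, 0.443 and 0.438 CPM in OE, against 39.6, 41.2 and 43.7 CPM in Vec. The groups lay far apart, and the libraries within each group lay close together. The mean was 0.443 ± 0.00435 CPM in OE and 41.5 ± 2.09 CPM in Vec (SD, n = 3 each), 93.8-fold lower in OE, with a log2 fold change of -6.54 ± 0.11. The OE counts were above the floor of 12 estimated counts. That floor would stand for 3 read pairs if 1 read pair added 4, but this unit is not settled. The OE level rests on few reads in each library, so its small SD does not measure how exactly that level or the fold is known.

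ZBTB7B (chromosome 1, 155002630 to 155018522, plus strand) went the other way. It had 81, 98 and 121 estimated counts in OE and 41, 19 and 16 in Vec, or 1.25, 1.32 and 1.89 CPM in OE against 0.707, 0.235 and 0.237 CPM in Vec. Every OE library was above every Vec library, and Vec replicate 1 was the highest of its group. The log2 fold change was 1.93 ± 0.47, with a range from 1.65 to 2.64 when each library was left out in turn. The level is low in both groups and Vec replicates 2 and 3 were close to the floor, so the size of this difference is uncertain.

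TCF7 and LEF1, which share a DNA-binding box, were both abundant, and Vec replicate 2 stood apart in both. TCF7 had 534, 529 and 519 CPM in OE libraries, against 692, 1103 and 682 CPM in Vec libraries. All OE libraries were below all Vec libraries, and Vec replicate 2 stood at 1.61 times the mean of the other Vec libraries. The mean was 528 ± 7.68 CPM in OE and 826 ± 240.3 CPM in Vec (SD, n = 3 each), with a log2 fold change of -0.65 ± 0.17; without Vec replicate 2 it was -0.39 ± 0.03. TCF7 was called lower in both of these fits, but not without OE replicate 2 or 3, where it was -0.65 and -0.64. LEF1 had 651, 618 and 620 CPM in OE, against 712, 572 and 699 CPM in Vec. Here Vec replicate 2 was the lowest of all 6 libraries, at 0.811 times the mean of the other Vec libraries, and the groups overlapped. LEF1 had a log2 fold change of -0.07 ± 0.08 and was not called. Without Vec replicate 2 it was -0.17 ± 0.03 and was called lower in OE.

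The ratio of TCF7 to LEF1, each as CPM per kilobase of exon, was 0.437, 0.456 and 0.446 in OE libraries and 0.518, 1.03 and 0.520 in Vec libraries. The OE libraries were again below the Vec libraries, and Vec replicate 2 held about as much TCF7 as LEF1 per length. Start windows of this pair are shown because the deposited counts pool all transcripts of a gene. The RefSeq windows used here hold 2 for TCF7 and 1 for LEF1, and other starts may be missing. The LEF1 start, at 108166301, lies inside the annotated gene (108047545 to 108168956, minus strand), so a start at its outer end is not shown. The upstream TCF7 start, at 134115613, also lies inside its gene (134114711 to 134151865, plus strand). Gene-level values cannot say from which start the transcripts came. Each window runs from 250 bases before to 50 after the start, on the gene's own strand, in GRCh38.p14; capitals mark the E-box CANNTG, the site of the E proteins that ID2 and ID3 hold back. The windows are chr5:134115363-134115662 (plus strand) and chr5:134123368-134123667 (plus strand) for TCF7 and chr4:108166252-108166551 (minus strand) for LEF1.
TCF7 upstream start: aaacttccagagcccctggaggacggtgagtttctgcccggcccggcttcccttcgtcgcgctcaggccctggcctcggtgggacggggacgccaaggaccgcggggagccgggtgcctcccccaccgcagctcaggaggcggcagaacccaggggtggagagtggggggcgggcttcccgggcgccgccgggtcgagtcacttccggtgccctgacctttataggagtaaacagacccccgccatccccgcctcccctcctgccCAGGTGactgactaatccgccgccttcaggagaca
TCF7 downstream start: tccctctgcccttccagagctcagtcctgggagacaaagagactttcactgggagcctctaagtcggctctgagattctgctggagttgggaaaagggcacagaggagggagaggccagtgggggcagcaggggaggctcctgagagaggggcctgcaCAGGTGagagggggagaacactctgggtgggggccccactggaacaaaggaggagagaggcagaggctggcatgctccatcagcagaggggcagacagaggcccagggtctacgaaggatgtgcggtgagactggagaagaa
LEF1 start: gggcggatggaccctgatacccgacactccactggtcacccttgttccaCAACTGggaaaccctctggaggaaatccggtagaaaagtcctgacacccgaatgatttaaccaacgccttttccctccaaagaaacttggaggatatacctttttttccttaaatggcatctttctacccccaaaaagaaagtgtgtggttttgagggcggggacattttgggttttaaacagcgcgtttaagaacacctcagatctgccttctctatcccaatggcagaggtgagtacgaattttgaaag
Each of the 3 windows held 1 E-box, and 68.7% of all 34943 RefSeq windows hold at least 1 on either strand. In both TCF7 windows the E-box reads CAGGTG on the printed strand. The ETS core GGAAG, searched on both strands, occurred 4 times in the upstream TCF7 window, 1 time in the downstream one and 0 times in that of LEF1 (71.8% of all windows hold it). The TCF/LEF core CTTTGA, on both strands, was in none of the 3 (12.9% of all windows). The upstream TCF7 window held 25 CpG dinucleotides, the downstream one 3 and that of LEF1 9, with a median of 14 over all windows. Of the 10 members 7 matched the table; ZBTB16, TOX and ETS1 were not in it.

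TOX was lower in OE at a substantial level, and its relative TOX2 was lower at a low level. TOX (chromosome 8) had 144, 144 and 132 CPM in OE libraries and 199, 201 and 205 CPM in Vec libraries. The groups did not overlap, with means of 140.2 ± 6.75 CPM in OE and 202 ± 3.26 CPM in Vec (SD, n = 3 each) and a log2 fold change of -0.53 ± 0.05. Leaving out single libraries kept it between -0.55 and -0.49. TOX2 (chromosome 20, 43914864 to 44069616, plus strand) had 23, 67 and 22 estimated counts in OE and 98, 132 and 65 in Vec. In CPM this is 0.354, 0.900 and 0.344 in OE, against 1.69, 1.64 and 0.961 in Vec. The lowest Vec library was just above the highest OE library, OE replicate 2. The log2 fold change was -1.41 ± 0.44. It was not called without OE replicate 1 or 3 or without Vec replicate 1, with values of -1.19, -1.18 and -1.28, and it was -2.03 without OE replicate 2.

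SATB1 and ETS1 were stable within each group. SATB1 (chromosome 3) had 448, 445 and 441 CPM in OE libraries and 439, 424 and 449 CPM in Vec libraries, with overlapping groups. Its log2 fold change was 0.02 ± 0.04, and it was not called. ETS1 (chromosome 11) had 563, 576 and 546 CPM in OE, against 677, 680 and 674 CPM in Vec. All OE libraries were lower, by a small margin next to that of ZBTB16 on the same chromosome. The log2 fold change of ETS1 was -0.27 ± 0.04 and stayed between -0.29 and -0.25 when single libraries were left out.

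Neither inhibitor of E proteins was called. ID2 (chromosome 2) had 200, 146 and 97 estimated counts in OE and 132, 99 and 133 in Vec, or 3.08, 1.96 and 1.52 CPM in OE and 2.28, 1.23 and 1.97 CPM in Vec. The groups overlapped, and its log2 fold change was 0.27 ± 0.33. ID3 (chromosome 1) was far more abundant, with 73.0, 72.1 and 73.0 CPM in OE and 74.1, 45.1 and 74.0 CPM in Vec. All libraries but Vec replicate 2 lay between 72.1 and 74.1 CPM, and that library was at 0.609 times the mean of the other Vec libraries. The log2 fold change of ID3 was 0.18 ± 0.17, and -0.04 ± 0.04 without Vec replicate 2; that of ID2 was 0.03 ± 0.31 without it.

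**Figure D2:**
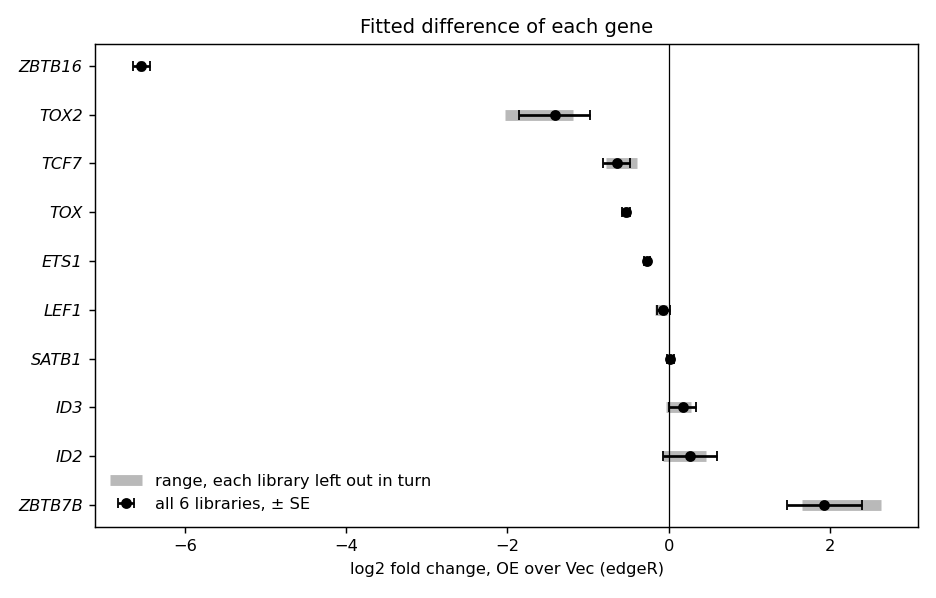
Log2 fold change of each gene, OE over Vec, with its SE (points and whiskers) and the range over the fits that leave out each library in turn (grey bars). ZBTB16 is at -6.54 and ZBTB7B at 1.93; the grey bar of TCF7 reaches -0.39, its value without Vec replicate 2.

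Ordered by mean CPM per kilobase of exon, LEF1 was the highest member in both groups, at 117.5 ± 3.44 in OE and 123 ± 14.4 in Vec. ETS1 followed with 78.6 ± 2.08 in OE and 94.7 ± 0.405 in Vec, and TCF7 with 52.4 ± 0.763 in OE and 82.1 ± 23.9 in Vec. The Vec libraries of TCF7 overlapped those of ETS1 and those of LEF1, so the place of TCF7 there is not resolved. In Vec replicate 2 TCF7 was above LEF1, at a ratio of 1.03. ID3 had 40.5 ± 0.283 in OE and 35.8 ± 9.30 in Vec, TOX 33.9 ± 1.63 in OE and 48.9 ± 0.789 in Vec, and SATB1 33.1 ± 0.262 in OE and 32.6 ± 0.933 in Vec. TOX and SATB1 overlapped in OE, and ID3 and SATB1 in Vec. ZBTB16 was the lowest of all 10 in OE, at 0.0695 ± 0.000683, and the seventh in Vec, at 6.51 ± 0.329. Below it in Vec stood ID2 (0.992 ± 0.365 in OE, 0.827 ± 0.245 in Vec), TOX2 (0.165 ± 0.0987 in OE, 0.443 ± 0.126 in Vec) and ZBTB7B (0.345 ± 0.0823 in OE, 0.0914 ± 0.0632 in Vec). Lengths are those of all annotated exons of a gene joined, which gives 10063 bases for TCF7 and 13409 for SATB1, so a gene whose transcripts leave out many of these exons can read too low.

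The profile of TCF7 over the 6 libraries was matched most closely by MYC, a transcription factor gene of growth control. The measure was the root mean square difference of log2(CPM + 0.5), after each gene's mean was removed, over 13967 genes that are not members. MYC, at a distance of 0.03, had 303, 303 and 304 CPM in OE libraries and 381, 620 and 381 CPM in Vec libraries. It was thus also highest in Vec replicate 2, at 1.63 times the mean of the other Vec libraries. SELENON (distance 0.05), a selenoprotein gene, had 8.89, 8.42 and 9.20 CPM in OE and 11.7, 19.7 and 12.3 CPM in Vec. IGHV4-34 (distance 0.07) had 4.87, 4.69 and 5.01 CPM in OE and 6.49, 9.54 and 6.36 CPM in Vec; it is an immunoglobulin segment with close relatives, and its level is uncertain to that extent. For ZBTB16 the nearest profiles were PI16 (distance 0.23), SOSTDC1 (0.50) and CD40LG (0.53). PI16 had 1.02, 0.900 and 1.39 CPM in OE and 65.9, 49.2 and 64.2 CPM in Vec. SOSTDC1 had 0.339, 0.403 and 0.344 CPM in OE and 20.2, 16.5 and 20.2 CPM in Vec. CD40LG, the gene of the CD40 ligand, had 0.0770, 0.161 and 0.282 CPM in OE and 60.5, 24.4 and 57.6 CPM in Vec. All 3 were low in each OE library, and all 3 were lowest among Vec libraries in replicate 2, where ZBTB16 was not. In OE libraries ZBTB16, SOSTDC1 and CD40LG lay below the added 0.5 CPM, so that value shapes these distances. Group means were 93.8-fold lower in OE for ZBTB16, 54.2-fold for PI16, 52.4-fold for SOSTDC1 and 274-fold for CD40LG.

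**Figure D3:**
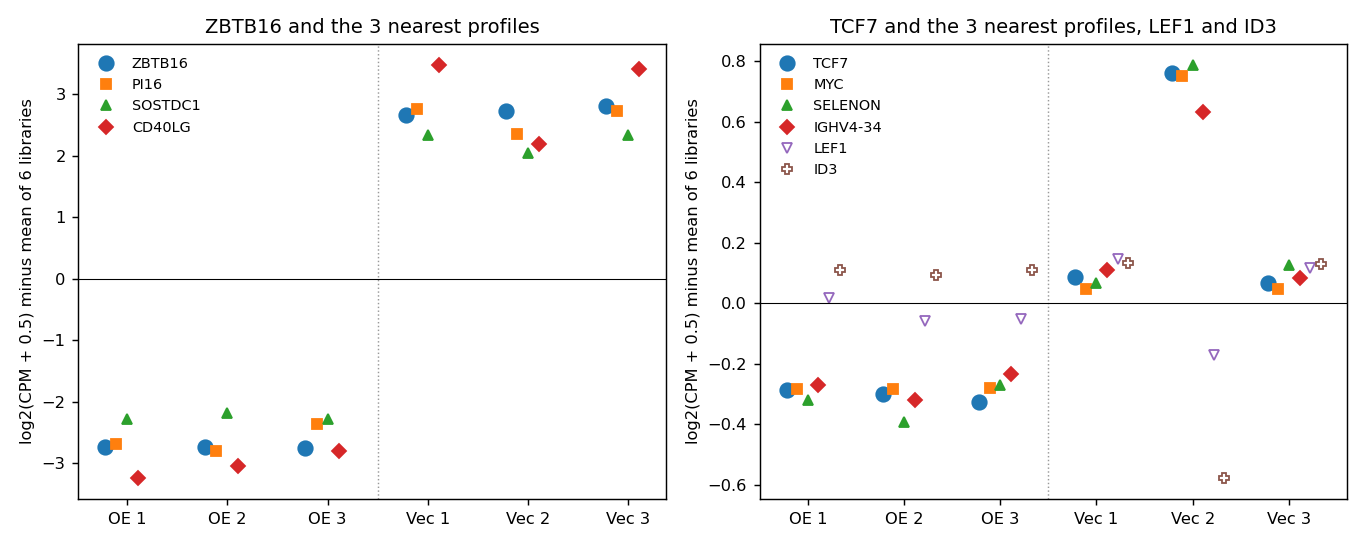
Log2(CPM + 0.5) minus the mean of the 6 libraries, for ZBTB16 (left) and TCF7 (right) with the 3 genes of most similar profile, and for LEF1 and ID3 (open symbols). TCF7, MYC, SELENON and IGHV4-34 are highest in Vec replicate 2, where LEF1 and ID3 are lowest; the vertical scales of the panels differ.

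The members lie on 8 chromosomes, and their nearest neighbours were called in both directions. Of the 20 nearest tested protein-coding neighbours, 1 on each side of each member, 6 were called higher and 8 lower, against 22.6% higher and 23.4% lower over all genes. Neither neighbour of ZBTB16 was called: USP28 had a log2 fold change of 0.06 ± 0.11 and C11orf71 of 0.30 ± 0.13. Both neighbours of TOX fell, NSMAF by 0.73 and CA8 by 1.32 on the log2 scale. Both neighbours of ZBTB7B rose, FLAD1 by 0.43 ± 0.06 and DCST1 by 2.04 ± 0.38. DCST1 had only 83, 78 and 70 estimated counts in OE and 12, 34 and 13 in Vec, so 2 Vec libraries were near the floor of 12. Gaps differed widely: NSMAF and CA8 lie 146 and 1068 kb from TOX, FLAD1 and DCST1 9.5 and 15.3 kb from ZBTB7B. USP28 and C11orf71 lie 184 and 141 kb from ZBTB16. Both neighbours of TCF7 fell, VDAC1 by 1.03 and SKP1 by 0.52. SKP1 (134148935 to 134177038, minus strand) overlaps the end of TCF7 (134114711 to 134151865, plus strand) on chromosome 5. The strand setting of the counts was not given, so reads of the overlap cannot be told apart. SKP1 had 140.3, 146 and 148 CPM in OE and 196, 222 and 203 CPM in Vec, and in Vec replicate 2 it did not show the excess seen for TCF7. FLI1, the ETS-family neighbour of ETS1, fell by 0.72.

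Antisense genes overlap 4 members, and without a known strand setting the reads of these overlaps cannot be told apart either. SATB1-AS1 fell by 0.74 on the log2 scale, with 1418, 1366 and 1306 estimated counts in OE and 2031, 2615 and 2264 in Vec, beside a SATB1 level that was not called. ID2-AS1 rose, with 61, 46 and 77 estimated counts in OE and 35, 27 and 19 in Vec. LEF1-AS1 had 776, 732 and 732 in OE and 642, 702 and 673 in Vec and was not called. ETS1-AS1 had 0, 0 and 2 in OE and 4, 0 and 0 in Vec, at or under the floor. TBC1D5 is not antisense: it overlaps SATB1 on the same minus strand, so strand could not separate those reads. It rose with a log2 fold change of 0.48 ± 0.05.

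The binding partners of the ID proteins were lower in OE. Of 5 genes in the list of E proteins and other ID genes, 4 were tested and all 4 fell. The median log2 fold change of the list was -0.59, against 0.02 over all genes, of which 46.1% were called. TCF12, which encodes the E protein HEB, averaged 292 ± 8.08 CPM in OE and 387 ± 18.9 CPM in Vec (SD, n = 3 each; edgeR adjusted p = 0.000338). TCF4, which encodes E2-2, averaged 6.74 ± 1.04 CPM in OE and 11.6 ± 0.864 CPM in Vec (edgeR adjusted p = 0.00318). TCF3, the gene of E12 and E47, fell by 0.23 and ID1 by 0.93 on the log2 scale. Summed per kilobase of exon, ID1, ID2 and ID3 came to 58.7, 57.0 and 59.5 in OE libraries and 81.4, 47.3 and 78.5 in Vec libraries. TCF3, TCF4 and TCF12 came to 96.4, 95.7 and 97.6 in OE and 118, 122 and 115 in Vec. The E-protein sums did not overlap between the groups, while the ID sum of Vec replicate 2 lay below every OE library. The ID sum over the E-protein sum was 0.609, 0.596 and 0.609 in OE and 0.691, 0.389 and 0.686 in Vec.

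Cofactors of TCF-1 and LEF-1 and the controllers of β-catenin moved both ways. Of 18 genes, all tested, 3 rose and 9 fell, with a median of -0.23; over all genes tested 22.6% were called higher and 23.4% lower, with a median of 0.02. TLE4, a corepressor of the TLE family, averaged 24.4 ± 1.19 CPM in OE and 83.2 ± 2.85 CPM in Vec (SD, n = 3 each; edgeR adjusted p = 9.61e-07). Its relatives TLE1 and TLE2 rose, with log2 fold changes of 0.51 ± 0.07 and 0.68 ± 0.14, and AXIN1, a scaffold of the complex that degrades β-catenin, fell by 0.43. Of 10 feedback targets of Wnt signalling, 5 were tested, 3 fell and 0 rose, with a median of -0.63, or -0.40 without Vec replicate 2. ZNRF3 and RNF43 encode ubiquitin ligases that remove Wnt receptors; ZNRF3 fell by 0.67 and RNF43 fell by 2.47 on the log2 scale. RNF43 had only 27, 19 and 15 estimated counts in OE and 90, 86 and 163 in Vec.

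The relatives of the members were mixed. Of 26 other ETS-family genes 19 were tested, 4 rose and 6 fell, against 22.6% higher and 23.4% lower over all genes, with a median of -0.06. ETV5 rose to 68.5 ± 0.683 CPM in OE, against 15.8 ± 3.58 CPM in Vec (SD, n = 3 each; edgeR adjusted p = 2.39e-05), and ELK1 had a log2 fold change of 0.35 ± 0.04. ETV6 fell by 0.80 and ETS2 fell by 1.19; ETS2 had 40.5, 42.5 and 41.5 CPM in OE and 78.0, 128 and 78.4 CPM in Vec, and so was highest in Vec replicate 2. Of 44 other BTB zinc finger genes 43 were tested, 10 rose and 16 fell, with a median of -0.08, beside the same shares over all genes. ZBTB37 and ZBTB47 rose by 0.78 ± 0.05 and 1.73 ± 0.19, and ZBTB18 and ZBTB6 fell by 0.93 and 0.96. Of the TOX relatives TOX3 and TOX4, TOX3 was not tested and TOX4 rose by 0.18 ± 0.04, or 0.16 and not called without Vec replicate 1.

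In each list of T-cell programmes in which the members are known to act, more genes were called lower than higher. These lists were drawn up with earlier results of these data known, and T-cell markers as a whole were lower too, with a median of -0.52, as given above. In the list of CD4 and CD8 lineage control, 1 of 15 genes rose and 9 fell, against 22.6% higher and 23.4% lower over all genes, with a median of -0.59. BCL11B, a factor of T-lineage commitment, averaged 189.6 ± 9.16 CPM in OE and 336 ± 25.2 CPM in Vec (SD, n = 3 each; edgeR adjusted p = 3.83e-05), and CBFB, the partner of RUNX factors, fell by 0.48. CD4, which ZBTB7B is known to maintain in mouse T cells, was the gene that rose. It had 84, 82 and 97 estimated counts in OE and 13, 56 and 15 in Vec, with a log2 fold change of 1.75 ± 0.47; it was not called without OE replicate 3, and it was 2.53 without Vec replicate 2.

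Of 17 genes of the innate-like programme associated with ZBTB16, 13 were tested, 1 rose and 6 fell, with a median of -0.43; over all genes tested 22.6% were called higher and 23.4% lower, with a median of 0.02. ICOS, a costimulatory receptor gene, averaged 0.293 ± 0.160 CPM in OE and 4.67 ± 1.40 CPM in Vec (SD, n = 3 each; edgeR adjusted p = 0.000144). CCR2, a chemokine receptor gene, fell to 8, 0 and 5 estimated counts in OE, against 202, 272 and 270 in Vec (edgeR adjusted p = 0.000171); the OE counts are below the floor of 12. IL18R1, a chain of the interleukin-18 receptor, had 10, 17 and 24 estimated counts in OE and 0 in each Vec library. These counts are near the floor of 12, and no fold is given. Of 12 naive and stem-like genes 11 were tested, 8 fell and 0 rose, with a median of -1.04, beside the same shares over all genes. IL7R, the interleukin-7 receptor gene, averaged 3.83 ± 0.863 CPM in OE and 20.3 ± 4.02 CPM in Vec (edgeR adjusted p = 6.52e-05), and S1PR1, a receptor for exit from lymphoid tissue, fell by 2.04.

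Of 12 genes of the exhaustion programme that TOX is known for in mouse T cells, 8 were tested, 1 rose and 3 fell, with a median of -0.78, against 22.6% higher and 23.4% lower over all genes. NR4A1, a nuclear receptor gene, had a log2 fold change of 0.67 ± 0.13, and HAVCR2, the gene of TIM-3, fell by 0.94. EOMES, a T-box factor gene that is also in the list of CD4 and CD8 lineage control, had 8.27, 7.64 and 7.46 CPM in OE and 145.8, 22.9 and 143 CPM in Vec. It fell by 3.74 on the log2 scale (edgeR adjusted p = 0.00166), and Vec replicate 2, though above every OE library, was far below the other Vec libraries.

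**Figure D4:**
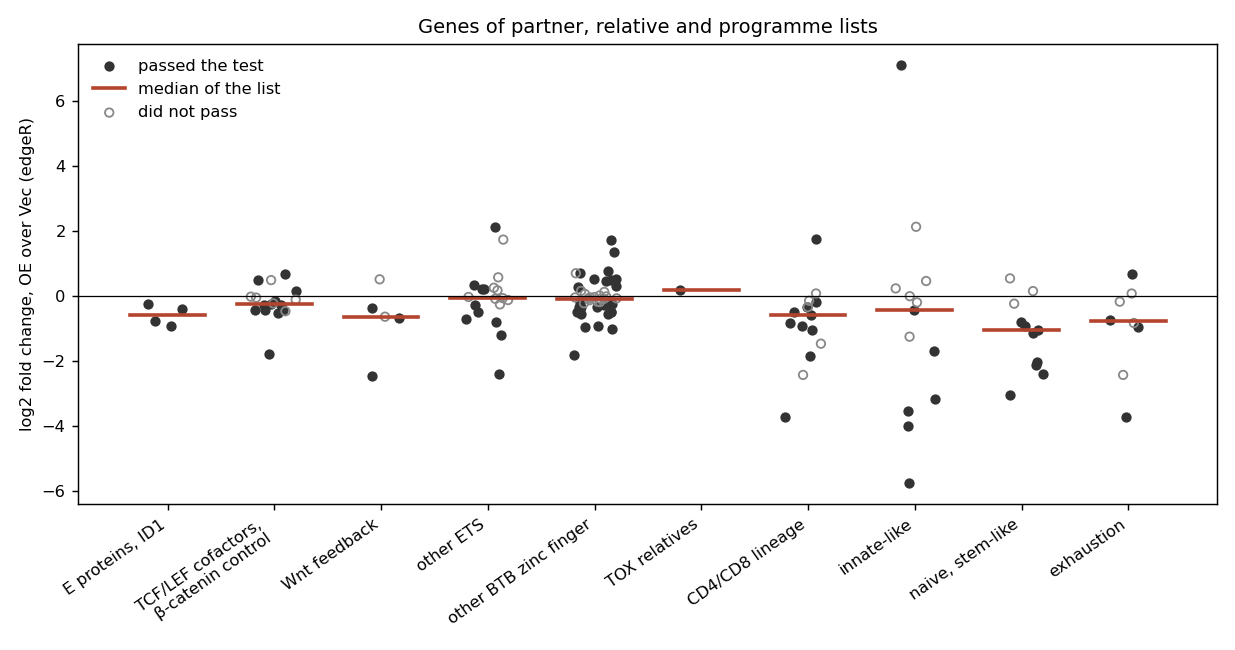
Log2 fold change, OE over Vec, of each tested gene in the 10 lists of partners, relatives and T-cell programmes; filled points passed the test, open ones did not, and red lines are medians. The medians run from -1.04 for naive and stem-like genes to -0.06 for other ETS genes, with TOX4, the tested TOX relative, at 0.18; the point at the top is IL18R1, which had 0 counts in Vec.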

How the data were processed

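The 6 TruSeq libraries were made from total RNA, per the labels' protocols. The deposited table holds whole-number expected counts (estimated counts) by gene symbol, 1 column per library and unscaled. The submitters' processing notes list fastp (0.23.2), STAR (2.7.10a), StringTie, DESeq2 and build hg38; annotation and strand setting are not given in the sources used here. What 1 read pair adds to a count is not settled. The value 4 was more frequent than 3 in every column, but 1 was more frequent than either (2716 to 3651 genes, against 1069 to 1154 at 4), and 8 was more frequent than 7 in all columns but Vec replicate 2 (509 against 543). No counting interval is therefore given. The floor of 12 estimated counts assumes 4 per read pair, and floors cover counting error only.

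Genes that passed filterByExpr of edgeR 4.0.16 (R 4.3.3) were scaled with TMM factors. Group was the sole term of the quasi-likelihood test, with Benjamini-Hochberg adjustment over all genes and a threshold of 0.05; SEs were derived from the F statistic. On simulated counts for 20478 genes of OE against Vec, 66, 67 and 67 genes were changed by 0.585, 1 and 2 on the log2 scale. Of these, 71.2%, 82.1% and 100% were recovered, with 10 false calls. The changed genes all averaged 100 estimated counts or more, and no simulated library stood apart. In the data 46.1% of genes were called, Vec replicate 2 stood apart, and ZBTB7B and TOX2 had lower counts. The simulated shares therefore do not carry over to these data. Positions and exon lengths came from GENCODE 29 (GRCh38), promoters from RefSeq. Members and lists were chosen with earlier results of these data known. All members were named, with their nearest tested neighbours and antisense genes, and up to 2 genes called in each direction per list by smallest adjusted p. TCF3, ID1, CD8A and CD8B were added after their values were seen, as were the T-cell markers CD2, CD7, TRBC1 and ZAP70. Some genes of the lists are not reported here and are left out of their counts. Alternatives were DESeq2 1.42.0, limma-voom (limma 3.58.1), DESeq2 size factors, upper-quartile factors, no filter, a stricter filter (means of 1 CPM and 50 estimated counts), division by 4, the replicate number as a block, and each library left out. Figures were drawn with matplotlib 3.10.9.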

Additional observations from a re-analysis of the deposited data

How the results depend on the processing

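Of 138 values of the 10 members under 14 alternatives, 128 kept their direction and their side of the threshold, and ZBTB16, ZBTB7B, TOX and ETS1 did so wherever they were tested, ZBTB16 between -6.59 and -6.50. The count of members called higher was 0 under the stricter filter, which did not test ZBTB7B or TOX2. With single libraries left out the members called lower numbered 3 to 6 and the genes called in all 7916 to 10868. TCF7 was not called without OE replicate 2 or 3 (-0.65 and -0.64, adjusted p = 0.0521 and 0.0581), within -0.77 to -0.39 over the left-out fits. TOX2 was not called with no filter (-1.42, adjusted p = 0.0533). SATB1, ID2 and ID3, called in no setting, changed sign among the left-out fits, within -0.0090 to 0.035, -0.064 to 0.47 and -0.036 to 0.28. The TOX relatives called numbered 0 to 1 in those fits, and the innate-like genes called numbered 4 under the stricter filter, which tests fewer genes. Other counts of calls stayed within 1.5 times the main one. The labels do not say that replicate numbers pair libraries, and deviations of same-numbered libraries correlated at 0.0052, 0.0013 and 0.023; with the replicate number as a block 8690 genes were called, with 1 member higher and 5 lower.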
